A study of Mus musculus with 8 samples.

Results

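The replication-dependent histone genes were followed in the livers of mice that carried adenoviral hairpins against Dnajb9 or Rictor. The members were chosen by name alone, as every gene whose symbol in the deposited count tables starts with Hist1h, Hist2h, Hist3h or Hist4h. This gave 68 genes of 24062 gene entries, namely 6 of the linker histone H1, 18 of H2A, 19 of H2B, 12 of H3 and 13 of H4. All 68 were found in the GENCODE M21 annotation of mouse build mm10, where 54 lie on chromosome 13 and 10 on chromosome 3, and 1 of them, Hist3h2bb-ps, is annotated as a pseudogene. A level high enough to test was reached by 55 members, and the other 13 are described with the shared sequence of the family.

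Whole liver of lean C57BL/6 mice was studied in 4 groups of 2 libraries. The groups lacZ1 and shDnajb9 came from mice 3 months old, labelled wild type and Dnajb9 Knockdown, and the groups lacZ2 and shRictor from mice 4 months old, labelled wild type and Rictor Knockdown. All 4 groups, controls included, were injected with virus at 0.1 OD and sampled 1 week on, when food had been withdrawn for 6 h, so no group shows a liver without virus. The labels do not say what the lacZ viruses encode, which cells took up virus, or whether the libraries of a group are separate animals, so p-values measure only the spread between these samples. RNA was total RNA depleted of ribosomal RNA, which also holds transcripts without a poly(A) tail.

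Replication-dependent histone genes supply the proteins that package newly made DNA. The core histones H2A, H2B, H3 and H4 form the nucleosome, and H1 binds the linker DNA between nucleosomes. These genes are expressed mainly in S phase, and their mRNAs end in a conserved stem-loop, bound by SLBP, in place of a poly(A) tail. Some of them also give polyadenylated transcripts in cells that have left the cycle, and an adult liver has few dividing cells. Dnajb9 encodes ERdj4, a co-chaperone of the endoplasmic reticulum, and Rictor encodes a subunit that defines mTOR complex 2, a kinase complex of insulin signalling.

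The stem-loop is shown because it marks these mRNAs as a family, and its forms differ between the H4 genes and the other classes. A stem-loop was found in the annotated 3' UTR of 44 of the 68 members, a median of 32 bases after the stop codon with a range of 22 to 59. The search asked for 6 perfectly paired bases, starting with GG, around a short loop starting with TT, so stem-loops of other forms would be missed. No 3' UTR long enough to hold it was annotated for 16 members, and 8 had an annotated 3' UTR without such a match. The 6 forms found are each given for 1 gene, 5' to 3' from the GENCODE M21 transcripts, with the stem-loop in capitals and 5 bases on either side in lower case. The form of Hist1h2bj was shared by 26 members, that of Hist1h4d by 7, that of Hist1h2bb by 6, those of Hist2h4 and Hist1h4b by 2 each, and that of Hist2h2ac by 1.
Hist1h2bj: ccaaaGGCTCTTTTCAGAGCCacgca
Hist1h2bb: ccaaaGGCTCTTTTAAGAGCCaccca
Hist2h2ac: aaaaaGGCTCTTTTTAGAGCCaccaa
Hist1h4d: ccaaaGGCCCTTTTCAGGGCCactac
Hist2h4: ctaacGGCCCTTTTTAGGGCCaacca
Hist1h4b: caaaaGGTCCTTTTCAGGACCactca
All 11 H4 genes with a stem-loop held one of the last 3 forms, and all 33 such genes of the other classes one of the first 3.

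The start regions are shown for a divergent pair of H2A and H2B genes that fell after both hairpins and for the H4 gene of the highest level, which passed no test. They were read from RefSeq on GRCm38.p6, plus strand, with matches in capitals to CCAAT or TATAA on either strand. The region between the start of Hist1h2ak and that of Hist1h2bn, chr13:21753913-21754075, held 3 matches to CCAAT. The 250 bases before the start of Hist1h4d, chr13:23581318-23581567, held 1 match to CCAAT and 2 overlapping matches to TATAA.
Hist1h2ak and Hist1h2bn: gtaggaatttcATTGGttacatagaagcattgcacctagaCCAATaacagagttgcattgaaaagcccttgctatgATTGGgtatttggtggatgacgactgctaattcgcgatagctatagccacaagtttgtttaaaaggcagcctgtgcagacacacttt
Hist1h4d: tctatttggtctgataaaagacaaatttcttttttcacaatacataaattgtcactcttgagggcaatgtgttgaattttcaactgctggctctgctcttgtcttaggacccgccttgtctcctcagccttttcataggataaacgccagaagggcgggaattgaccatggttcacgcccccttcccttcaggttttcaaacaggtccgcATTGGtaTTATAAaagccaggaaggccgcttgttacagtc
Across the 62 members with a RefSeq promoter, taken as the 300 bases from 250 before to 50 after the start, CCAAT occurred in 85.5%, against 37.4% of all RefSeq promoters. Its share was 100% in H1, H2A, H2B and H3 and 25% in H4. TATAA occurred in 79% of members and 24.8% of all promoters. The 7 letters ATTTGCA, part of the octamer motif, occurred in 38.9% of H2A and 37.5% of H2B promoters, in 4.04% of all promoters and in no H1, H3 or H4 promoter. The windows of a close divergent pair such as Hist1h2ak and Hist1h2bn overlap, so the same match can count for both an H2A and an H2B gene. These are matches of letters in a window and describe the sequences only.

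Libraries held between 6426164 and 11383532 counts assigned to genes. Of these, the 68 members took 0.139% to 0.508%, or 14839 to 37133 counts. Reads that HTSeq could not place uniquely made up 41.3% and 42% in shDnajb9, 32.7% and 26.7% in shRictor, and 22.9% to 24.9% in the lacZ libraries. Such reads are not counted, and their part in the histone results was not tested. The targeted genes, which check the labels, did not pass the test. Dnajb9 was at 30.6 and 38 CPM in lacZ1 and 22 and 20.3 in shDnajb9 (log2 fold change -0.70, adjusted p = 0.056), and Rictor at 52.3 and 65.2 CPM in lacZ2 and 40.1 and 42 in shRictor (log2 fold change -0.52, adjusted p = 0.231). In both cases the libraries of the hairpin group lay below those of their control, as they did for 35.1% of all genes in shDnajb9 and 31.6% in shRictor. Rictor was also lower in shDnajb9, at 33.3 and 63.4 CPM against 65.4 and 68.8 in lacZ1 (log2 fold change -0.46, adjusted p = 0.239). Dnajb9 was higher in shRictor, at 61.1 and 43.8 CPM against 40.4 and 38.8 in lacZ2 (log2 fold change 0.41, adjusted p = 0.271).

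The summed level of the 68 genes was lower after the Rictor hairpin and overlapped the control after the Dnajb9 hairpin. Levels are given as CPM, a gene's counts relative to the library total, with the totals scaled by TMM, edgeR's normalisation. The sum was 2904 and 3840 CPM with lacZ1, 3111 and 2213 with shDnajb9, 3979 and 3143 with lacZ2 and 1968 and 1550 with shRictor. Both shRictor libraries lay below all other libraries, and the shDnajb9 libraries straddled the lower lacZ1 library. As group means ± SD of 2 libraries, shRictor was at 1759 ± 295 against 3561 ± 591 CPM in lacZ2, which is 2.02-fold lower, and shDnajb9 at 2662 ± 635 against 3372 ± 662 CPM in lacZ1, which is 1.27-fold lower. The sums carry no test, since 2 libraries against 2 allow no permutation test under 0.05. In whole liver, fewer cells that express these genes and less RNA per cell cannot be told apart.

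By class, H3 had the largest difference in the sum and H4 the smallest in both comparisons. In shRictor the log2 difference from lacZ2 was -0.85 for H1, -1.34 for H2A, -1.19 for H2B, -1.40 for H3 and -0.69 for H4, and the libraries of both groups did not overlap in any class. In shDnajb9 the log2 difference from lacZ1 was -0.31 for H1, -0.67 for H2A, -0.53 for H2B and -0.93 for H3, and for H4 it was 0.17. The libraries did not overlap for H2A, H2B and H3, whereas those of H1 and H4 did. The H4 sum was 1334.5 and 820.3 CPM with shDnajb9 and 782 and 1129.6 with lacZ1, so its higher mean rested on shDnajb9 replicate 1. The scaling bears on these sums: with total counts only, the difference of all members became -0.79 in shDnajb9 without overlap and -1.43 in shRictor, and that of H4 in shDnajb9 changed sign to -0.28. The shDnajb9 sum also depended on single libraries, at -0.56 or -0.13 when lacZ1 replicate 1 or 2 was left out, and at -0.60 or -0.12 when shDnajb9 replicate 1 or 2 was.

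**Figure D1:**
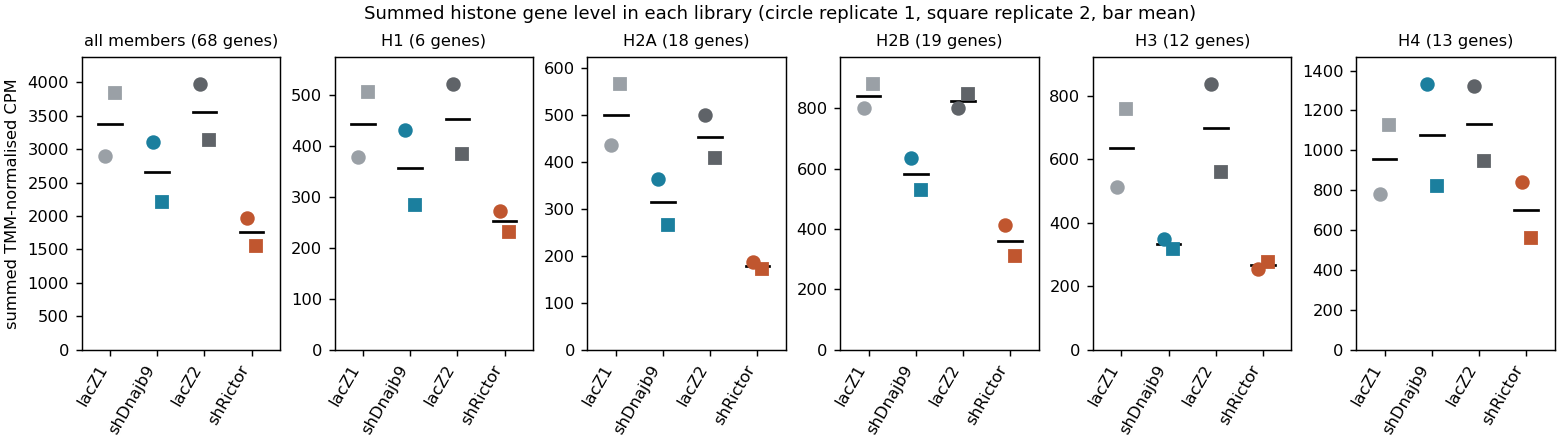
Summed TMM-normalised CPM (vertical axis from 0, a scale of its own in each panel) of all 68 histone genes and of each class in the 4 groups; circles are replicate 1, squares replicate 2 and bars group means. The shRictor libraries lie below both lacZ2 libraries in each panel, and the shDnajb9 libraries overlap lacZ1 for all members, H1 and H4.

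The make-up of the histone counts was described by class. H4 genes took 26.9% and 29.4% of the histone counts in lacZ1 and 42.9% and 37.1% in shDnajb9. They took 33.2% and 30.1% in lacZ2 and 42.9% and 36.1% in shRictor. All 4 hairpin libraries lay above all 4 lacZ libraries in this share, which needs no scaling between libraries. The share of H3 was 17.6% and 19.7% with lacZ1, 11.2% and 14.3% with shDnajb9, 21.1% and 17.8% with lacZ2 and 12.9% and 17.9% with shRictor, where the second shRictor library reached the level of lacZ2. H1 held between 12.2% and 14.9% in every library. The share of H2A was 12.53% to 14.96% in the lacZ libraries and lower, 9.51% to 11.94%, in the hairpin libraries. H2B held 20.1% to 27.5%, and its hairpin and lacZ libraries overlapped. The shares of a library add to 100%, so a class can gain share while its level falls. In shRictor the H4 share was higher although the log2 difference of the H4 sum was -0.69.

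**Figure D2:**
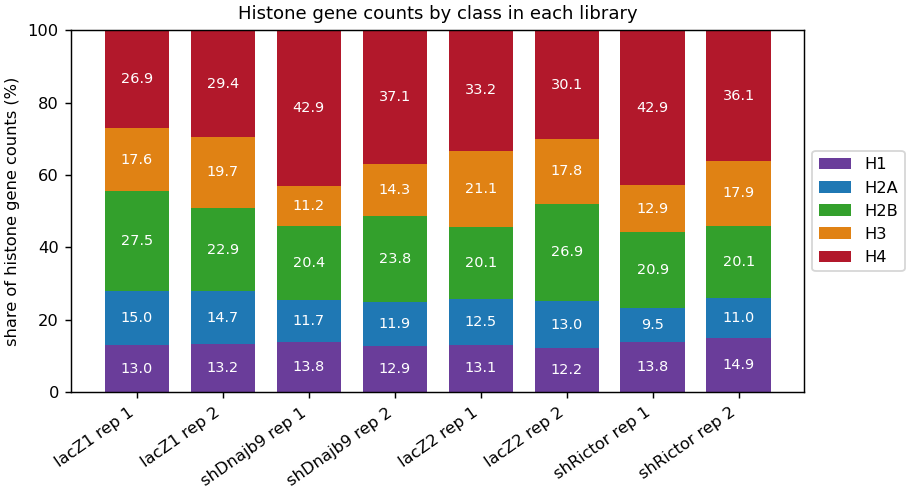
Share of all histone gene counts (percent, stacked from 0 to 100) that falls to each class in each of the 8 libraries. The H4 share is 26.9% to 33.2% in the lacZ libraries and 36.1% to 42.9% in the hairpin libraries.

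Gene by gene, the members that passed the test were lower. In shDnajb9, 18 of the 55 tested members fell and 0 rose at a Benjamini-Hochberg adjusted p under 0.05 in the quasi-likelihood test of edgeR, where 12.6% of all 13767 genes tested fell and 11.6% rose. In shRictor, 40 of 55 fell and 0 rose, where 10.9% of all genes fell and 7.31% rose. The median log2 fold change of the tested members was -0.69 in shDnajb9 and -1.38 in shRictor, beside medians of -0.05 and -0.02 over all genes. Single members ranged from -1.83 to 0.51 and from -2.39 to -0.25, with 47 of 55 below 0 in shDnajb9 and 55 of 55 in shRictor. Without an adjusted test, the hairpin libraries lay below those of their control in 31 members after shDnajb9, where 35.1% of all genes did, and in 49 after shRictor, where 31.6% did. They lay above in 1 member after shDnajb9 and in 0 after shRictor, where 32.4% and 28.8% of all genes did. The shDnajb9 count moved with the processing, to 34 with total counts only and to 39 with a correction for transcript length. The share of all genes that fell under these settings was 24.4% and 13.2%. Without lacZ1 replicate 2, the median log2 fold change of the members in shDnajb9 was -0.59.

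Of the H1 genes, 2 of 5 tested fell in shDnajb9 and 3 of 5 in shRictor, where 12.6% and 10.9% of all genes did. The median log2 fold changes of the H1 genes were -0.47 and -1.06. Hist1h1a and Hist1h1b, which share no 50-base stretch with another gene, fell in both. Hist1h1a (chr13:23763666-23764406, plus strand) was at 35 and 47.3 CPM with lacZ1, 23.9 and 16.3 with shDnajb9, 47.6 and 40.5 with lacZ2 and 10.7 and 14.1 with shRictor. Every hairpin library lay below every lacZ library, and the shRictor libraries were the lowest. The log2 fold change was -1.05 ± 0.27 (SE; adjusted p = 0.0159) in shDnajb9 and -1.82 ± 0.28 (adjusted p = 0.000771) in shRictor. Hist1h1b was at 27.5 and 38.3 CPM with lacZ1, 20.8 and 15.6 with shDnajb9, 39.9 and 24.8 with lacZ2 and 7.18 and 9.39 with shRictor. Here too every hairpin library lay below every lacZ library, and it fell by 0.86 on the log2 scale in shDnajb9 (adjusted p = 0.0492) and by 1.95 in shRictor (adjusted p = 0.000943). The shDnajb9 call of Hist1h1b lay at the threshold and was made in 11 of 21 alternative settings.

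The H1 genes with the highest levels, Hist1h1c and Hist1h1d, differed less. Hist1h1c was at 123.2 and 165.9 CPM with lacZ1, 181.7 and 103.4 with shDnajb9, 195.0 and 129.4 with lacZ2 and 110.3 and 91.5 with shRictor. The shDnajb9 libraries lay on both sides of lacZ1, and the shRictor libraries below lacZ2. Neither difference passed the test, at log2 fold changes of -0.02 (adjusted p = 0.969) and -0.68 (adjusted p = 0.164). Hist1h1d was at 103.6 and 141.5 CPM with lacZ1, 107.7 and 69.6 with shDnajb9, 130 and 106.1 with lacZ2 and 59.7 and 53.9 with shRictor. It fell in shRictor (log2 fold change -1.06 ± 0.28, adjusted p = 0.0191), and its libraries overlapped in shDnajb9 (-0.47, adjusted p = 0.22).

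Of the H2A genes, 2 of 13 tested fell in shDnajb9 and 11 of 13 in shRictor, where 12.6% and 10.9% of all genes did. The shDnajb9 count of H2A thus lay near the share of all genes. The H2A medians were -0.65 and -1.5. Both that fell in shDnajb9, Hist1h2ai and Hist1h2ak, fell in shRictor too. Hist1h2ak (chr13:21753435-21753827, minus strand), whose start region is printed above, was at 80 and 87.9 CPM with lacZ1, 21.6 and 28.4 with shDnajb9, 69.7 and 69.5 with lacZ2 and 24.1 and 29.5 with shRictor. The libraries of each group lay close together, and all hairpin libraries were far below all lacZ libraries. It fell 3.34-fold in shDnajb9 (log2 fold change -1.74 ± 0.24, adjusted p = 0.000386) and 2.59-fold in shRictor (-1.38 ± 0.23, adjusted p = 0.00165). An antisense gene, Gm44454, overlaps it, and 52.3% of its 50-base stretches occur in another gene, so part of its reads cannot be assigned with certainty.

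Hist1h2ai was at 59.8 and 85.3 CPM with lacZ1, 36.5 and 33 with shDnajb9, 60.5 and 57.6 with lacZ2 and 22.7 and 19 with shRictor. All hairpin libraries lay below all lacZ libraries, with log2 fold changes of -1.06 (adjusted p = 0.00837) and -1.5 (adjusted p = 0.00127). Hist1h2an had the largest fall of any member in shRictor. Its level was 7.71 and 12.5 CPM with lacZ1, 8.18 and 4.22 with shDnajb9, 12.6 and 9.39 with lacZ2 and 2 and 2.15 with shRictor. The shDnajb9 libraries overlapped lacZ1 (log2 fold change -0.75, adjusted p = 0.141), whereas the shRictor libraries lay far below lacZ2 (-2.39 ± 0.39, adjusted p = 0.00122). Hist1h2ai and Hist1h2an share 90.1% and 85.8% of their 50-base stretches with other genes. Hist2h2ac, on chromosome 3, was at 69.1 and 87.9 CPM with lacZ1, 78.2 and 49.3 with shDnajb9, 60.4 and 54.3 with lacZ2 and 29.6 and 23.7 with shRictor. It overlapped its control in shDnajb9 (-0.31, adjusted p = 0.407) and fell in shRictor (-1.11, adjusted p = 0.013).

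Of the H2B genes, 8 of 16 tested fell in shDnajb9 and 13 of 16 in shRictor, where 12.6% and 10.9% of all genes did. The H2B medians were -1.28 and -1.59. All 8 that fell in shDnajb9 also fell in shRictor, namely Hist1h2be, Hist1h2bf, Hist1h2bh, Hist1h2bj, Hist1h2bl, Hist1h2bm, Hist1h2bn and Hist2h2bb. Hist1h2bj (chr13:22043214-22043676, plus strand) was at 30.1 and 34.1 CPM with lacZ1, 14.3 and 11.1 with shDnajb9, 34.5 and 30.4 with lacZ2 and 7.06 and 9.88 with shRictor. All hairpin libraries lay below all lacZ libraries, and those of shRictor were the lowest. It fell by 1.35 on the log2 scale in shDnajb9 (adjusted p = 0.00301) and by 1.93 in shRictor (adjusted p = 0.0004), the smallest p of any member there. Hist1h2bm was at 37.8 and 50.4 CPM with lacZ1, 16.1 and 18.8 with shDnajb9, 36.6 and 38.3 with lacZ2 and 11.5 and 11.9 with shRictor. Its hairpin libraries also lay below all lacZ libraries, with log2 fold changes of -1.33 (adjusted p = 0.00226) and -1.67 (adjusted p = 0.000601).

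The largest fall of any member in shDnajb9 was that of Hist2h2bb (chr3:96269752-96270132, plus strand). Its level was 40.9 and 60.8 CPM with lacZ1, 10.5 and 17.6 with shDnajb9, 38 and 37.5 with lacZ2 and 7.77 and 13.9 with shRictor. The hairpin groups overlapped each other and lay below both controls, at -1.83 ± 0.33 (adjusted p = 0.00234) and -1.79 ± 0.33 (adjusted p = 0.00275). The genes Gm20628 and Gm42743 overlap it, so its reads may belong in part to them. Hist1h2bh was at 22.8 and 20.9 CPM with lacZ1, 4.82 and 7.99 with shDnajb9, 13 and 18.5 with lacZ2 and 5.3 and 7.44 with shRictor. Hist1h2bl was at 23.6 and 37.2 CPM with lacZ1, 11.7 and 8.79 with shDnajb9, 23.3 and 22.5 with lacZ2 and 6.83 and 8.22 with shRictor. Both had all hairpin libraries below all lacZ libraries. The log2 fold changes were -1.73 (adjusted p = 0.00217) and -1.30 (adjusted p = 0.00993) for Hist1h2bh, and -1.58 (adjusted p = 0.00225) and -1.60 (adjusted p = 0.00207) for Hist1h2bl.

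The H2B genes of the highest level did not follow these in shDnajb9. Hist1h2bc was at 248.3 and 218.6 CPM with lacZ1, 346.1 and 223.9 with shDnajb9, 264 and 296.8 with lacZ2 and 235 and 123 with shRictor. The first shDnajb9 library was the highest of all 8, and the second shRictor library was the lowest. Neither comparison passed the test, at 0.29 (adjusted p = 0.562) and -0.65 (adjusted p = 0.221). Hist1h2bb was at 91.9 and 107.6 CPM with lacZ1, 96.6 and 70.2 with shDnajb9, 132.2 and 91.9 with lacZ2 and 42 and 32.3 with shRictor. It overlapped its control in shDnajb9 (-0.26, adjusted p = 0.496) and fell 3.02-fold in shRictor (log2 fold change -1.59 ± 0.28, adjusted p = 0.00186).

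Of the H3 genes, 4 of 10 tested fell in shDnajb9 and 8 of 10 in shRictor, where 12.6% and 10.9% of all genes did. The H3 medians were -0.95 and -1.32. The 4 that fell in shDnajb9 were Hist1h3c, Hist1h3f, Hist1h3g and Hist1h3h, and each also fell in shRictor. Hist1h3f (chr13:23544052-23545312, plus strand) was at 136.9 and 191.9 CPM with lacZ1, 60.8 and 97.9 with shDnajb9, 227.1 and 120 with lacZ2 and 72.9 and 63.4 with shRictor. The lacZ2 libraries lay far apart, and all hairpin libraries were below all lacZ libraries. It fell in both, by 1.05 ± 0.34 on the log2 scale (adjusted p = 0.0408) and by 1.35 ± 0.34 (adjusted p = 0.0162). Hist1h3e was at 80 and 186.9 CPM with lacZ1, 106.1 and 81.3 with shDnajb9, 170.7 and 142.1 with lacZ2 and 71.3 and 87 with shRictor. The shDnajb9 libraries lay between those of lacZ1 and the shRictor libraries below lacZ2, and neither difference passed the test (-0.51, adjusted p = 0.293, and -0.98, adjusted p = 0.0703).

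Of the H4 genes, 2 of 11 tested fell in shDnajb9 and 5 of 11 in shRictor, where 12.6% and 10.9% of all genes did. The H4 medians were -0.22 and -0.997. Hist1h4f fell in both, and Hist1h4b is the member that passed the test in shDnajb9 (-0.81, adjusted p = 0.0262) and not in shRictor (-0.55, adjusted p = 0.124). Hist1h4d (chr13:23581598-23582735, plus strand) was at 233.5 and 353.3 CPM with lacZ1, 509.6 and 287.8 with shDnajb9, 404.4 and 267.3 with lacZ2 and 303.5 and 193.7 with shRictor. Its libraries overlapped in both comparisons, and the spread within each group was wide. The highest values came from shDnajb9 replicate 1 and lacZ2 replicate 1, where the transcript Rpph1 took 4.7% and 4.26% of gene counts. In the other libraries Rpph1 took 1.11% to 2.03%, and its bearing on the histone levels was not tested. The log2 fold change of Hist1h4d was 0.44 ± 0.38 (adjusted p = 0.406) in shDnajb9 and -0.43 ± 0.38 (adjusted p = 0.477) in shRictor. Hist1h4h was at 153 and 217.7 CPM with lacZ1, 223.3 and 171.9 with shDnajb9, 224.1 and 196.7 with lacZ2 and 188.5 and 126 with shRictor. It overlapped lacZ1 in shDnajb9 (0.09, adjusted p = 0.846) and lay below lacZ2 in shRictor without passing the test (-0.42, adjusted p = 0.379). With total counts only, the shDnajb9 values of Hist1h4d and Hist1h4h were -0.02 and -0.34.

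**Figure D3:**
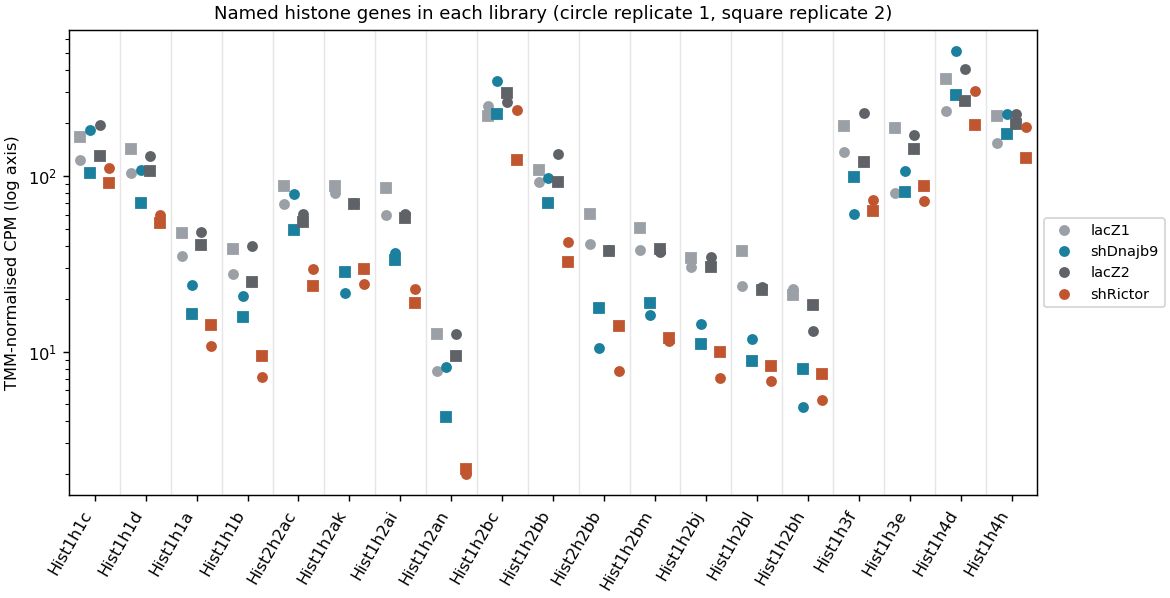
TMM-normalised CPM (log axis) of the 19 histone genes described singly, ordered by class and then by mean level, in all 8 libraries; circles are replicate 1 and squares replicate 2. Hist1h2ak, Hist2h2bb, Hist1h2bm and Hist1h2bj have all hairpin libraries below all lacZ libraries, and Hist1h4d overlaps its control in both comparisons.

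Most members that fell in shDnajb9 also fell in shRictor, and the 2 experiments share no library. Both calls were made for 17 of the 55 members, which are 94.4% of the shDnajb9 calls and 42.5% of the shRictor calls. Of all 13767 genes tested, 943 (6.85%) fell in both, where 1728 fell in shDnajb9 and 1502 in shRictor. Across the 55 tested members, the log2 fold changes of the 2 comparisons had a Pearson's r of 0.598 and a Spearman's rho of 0.557. This is a description across genes, which are not independent replicates and share libraries and sequence. All 4 hairpin libraries lay below all 4 lacZ libraries in 28 of the 55 members, where 17.9% of all genes did, and above them in 0. These 28 comprised 2 H1, 5 H2A, 11 H2B, 6 H3 and 4 H4 genes.

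Whether the effects of the hairpins differed was tested as the difference between the 2 fold changes. It was below 0, that is lower in the Rictor experiment, in 48 of 55 members with a median of -0.64, and 0 members passed the test of edgeR, where 0.00726% of all genes did. The smallest adjusted p was 0.385, 11 members had an unadjusted p under 0.05, and DESeq2 also called 0. Without a filter on low counts, 4 members passed as lower in the Rictor experiment. The shares of all genes that go with the 11 and the 4 are not given here, so neither count can be read against them. Between the controls, lacZ2 minus lacZ1, 0 members passed, as did 0% of all genes, with 0 at an unadjusted p under 0.05 and 0 by DESeq2. The lacZ2 libraries lay below both lacZ1 libraries in 8 members and above them in 5, where 9.97% and 11.7% of all genes did. In that comparison the age of the mice and the experiment cannot be told apart.

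**Figure D4:**
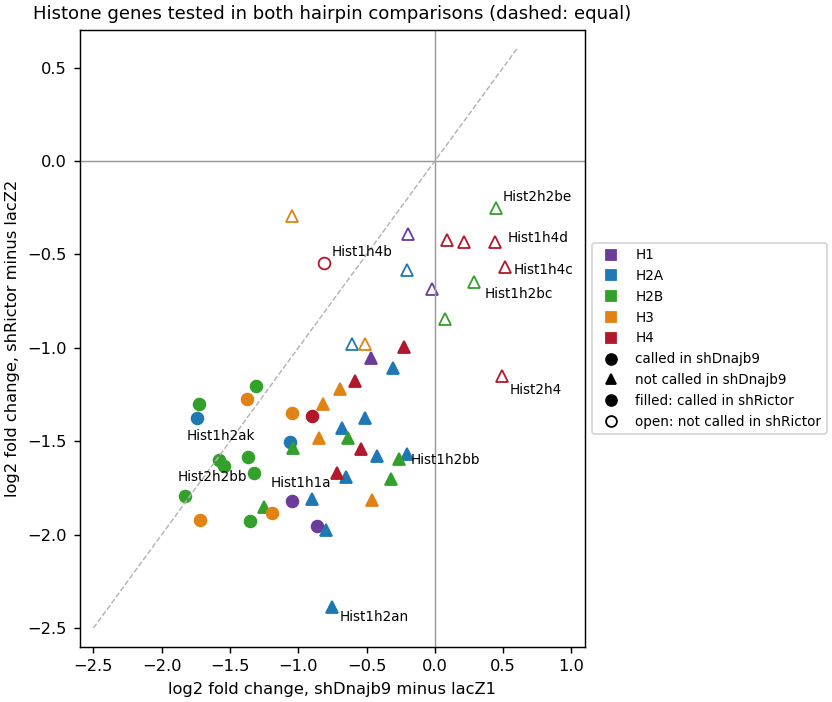
Log2 fold change of the 55 tested histone genes in shDnajb9 minus lacZ1 (horizontal) and shRictor minus lacZ2 (vertical), coloured by class; circles passed the test in shDnajb9, triangles did not, and filled symbols passed in shRictor. All 55 points lie below 0 on the vertical axis and 47 lie left of 0, with 5 H4 and 3 H2B genes to the right.

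Members differ in how well their reads can be told from those of other genes. In 51 of the 68, 20% or more of the 50-base stretches of their transcripts occur in another gene, and the authors' counting drops reads that fit several places. Among the 13 members that could not be tested, the shared percentage was 0 for Hist1h1t and 2.35 for Hist1h2aa and above 20 for the others. Hist1h2ao, Hist1h2ap, Hist1h2bq, Hist1h2br, Hist1h4m, Hist2h2aa1, Hist2h3c1, Hist2h3c2 and Hist1h2aa had 0 counts in all 8 libraries, and Hist1h1t, Hist1h2ba, Hist1h4n and Hist2h2aa2 had 13, 5, 8 and 1 in total. Of the 17 members under 20%, 15 were tested. Of these, 5 fell in shDnajb9 (median -0.20) and 8 in shRictor (median -1.06). Of the 40 tested members above that limit, 13 fell in shDnajb9 (median -0.77) and 32 in shRictor (median -1.48). Over all genes tested, 12.6% fell in shDnajb9 and 10.9% in shRictor. Summed over the members under 20%, the log2 difference was -0.03 in shDnajb9 and -0.78 in shRictor.

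Members also differed by transcript length, with the larger median falls in the shorter ones. Of the 14 tested members with an annotated transcript of 1000 bases or more, 3 fell in shDnajb9 (median -0.20) and 7 in shRictor (median -1.03). Of the 41 shorter ones, 15 fell in shDnajb9 (median -0.80) and 33 in shRictor (median -1.54), where 12.6% and 10.9% of all genes fell. The long ones include Hist1h4d, Hist2h4, Hist1h1c and Hist1h2bc (1138, 1630, 1560 and 1156 bases), which did not pass the test in shDnajb9, and Hist1h2bh, Hist1h2be and Hist1h3f (1679, 2506 and 1261 bases), which fell there. Across the 55 members, the log2 fold change had an r of 0.385 with log2 transcript length in shDnajb9 and of 0.387 in shRictor, and of -0.40 and -0.35 with the shared percentage. By stem-loop, the 20 tested members with the form of Hist1h2bj had medians of -0.64 in shDnajb9 and -1.40 in shRictor, and the 5 with the form of Hist1h4d had medians of 0.09 and -0.57. Class, length, shared sequence and stem-loop form overlap among these genes, and their parts were not tested.

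Genes that act with the histone genes were taken from lists of textbook members. Of 21 tested genes for histone transcription and mRNA processing, 4 fell in shDnajb9 and 3 in shRictor, and 0 rose in either (medians -0.51 and -0.36), where 12.6% and 10.9% of all genes fell. Slbp, which encodes the stem-loop binding protein, was at 45.8 and 58.1 CPM with lacZ1, 32.7 and 29.6 with shDnajb9, 48.9 and 57.4 with lacZ2 and 24.1 and 23.6 with shRictor. All hairpin libraries lay below all lacZ libraries, and Slbp fell in both (log2 fold change -0.74, adjusted p = 0.0338, and -1.16, adjusted p = 0.00437). Npat, a coactivator of histone gene transcription, did not pass the test in either (-0.51, adjusted p = 0.168, and -0.50, adjusted p = 0.21). E2f2, a transcription factor of the cell cycle, and Zfp473, a zinc-finger protein of the U7 processing complex, fell in both. Zfp473 had few counts, 31 and 33 with lacZ1, 0 and 4 with shDnajb9, 13 and 23 with lacZ2 and 4 and 2 with shRictor.

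Of 20 tested histone chaperones and assembly factors, 8 fell in shDnajb9 and 5 in shRictor, and 0 rose (medians -0.78 and -0.35). Among all genes, 12.6% and 10.9% fell. Chaf1a and Chaf1b, subunits of the chromatin assembly factor CAF-1 that deposits new H3 and H4 on DNA, fell in both, with log2 fold changes of -1.97 and -2.23 in shDnajb9 and of -1.70 and -1.43 in shRictor. So did Asf1b, which hands H3 and H4 to CAF-1 (-1.67 and -2.14), and Hat1, which acetylates new H4 (-1.09 and -1.36). Of 11 tested histone variant genes named outside the Hist1h to Hist4h rule, 3 fell and 1 rose in shDnajb9, and 4 fell in shRictor. Their medians were -0.36 and -0.35, and 11.6% of all genes rose in shDnajb9. When the variants on this list are made in the cell cycle was not tested. Cenpa, the H3 variant of centromeres, fell in both (log2 fold changes -1.91 and -1.92), as did H2afx, whose phosphorylated form marks DNA breaks (-1.5 and -1.69). So did the linker variant H1fx (-3.81 and -3.57), from few counts. H1fx had 123 and 50 counts with lacZ1, 3 and 5 with shDnajb9, 99 and 49 with lacZ2 and 4 and 8 with shRictor. Of the H2A.Z genes, H2afv rose in shDnajb9 (0.85) and H2afz fell in shRictor (-1.05).

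Genes of the cell cycle fell as well. Of 37 genes of S phase and DNA replication, 24 fell and 1 rose in shDnajb9, and 27 fell and 1 rose in shRictor (medians -1.35 and -1.41). Among all genes, 12.6% fell and 11.6% rose in shDnajb9, and 10.9% fell and 7.31% rose in shRictor. Ccne1, the cyclin of S phase entry, fell in both (log2 fold changes -2.995 and -3.04), as did Lig1, the ligase that joins Okazaki fragments (-2.38 and -2.56). Of 20 mitosis genes, 20 fell in both (medians -2.95 and -2.65), among them Cdc20, an activator of the anaphase-promoting complex (-3.36 and -3.07). Summed over the list, mitosis genes were at 1109 and 1371 CPM with lacZ1, 140.4 and 188.3 with shDnajb9, 876.2 and 896.2 with lacZ2 and 111.3 and 190.4 with shRictor. The hairpin groups lay far below their controls, while the histone sum of shDnajb9 overlapped lacZ1.

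**Figure D5:**
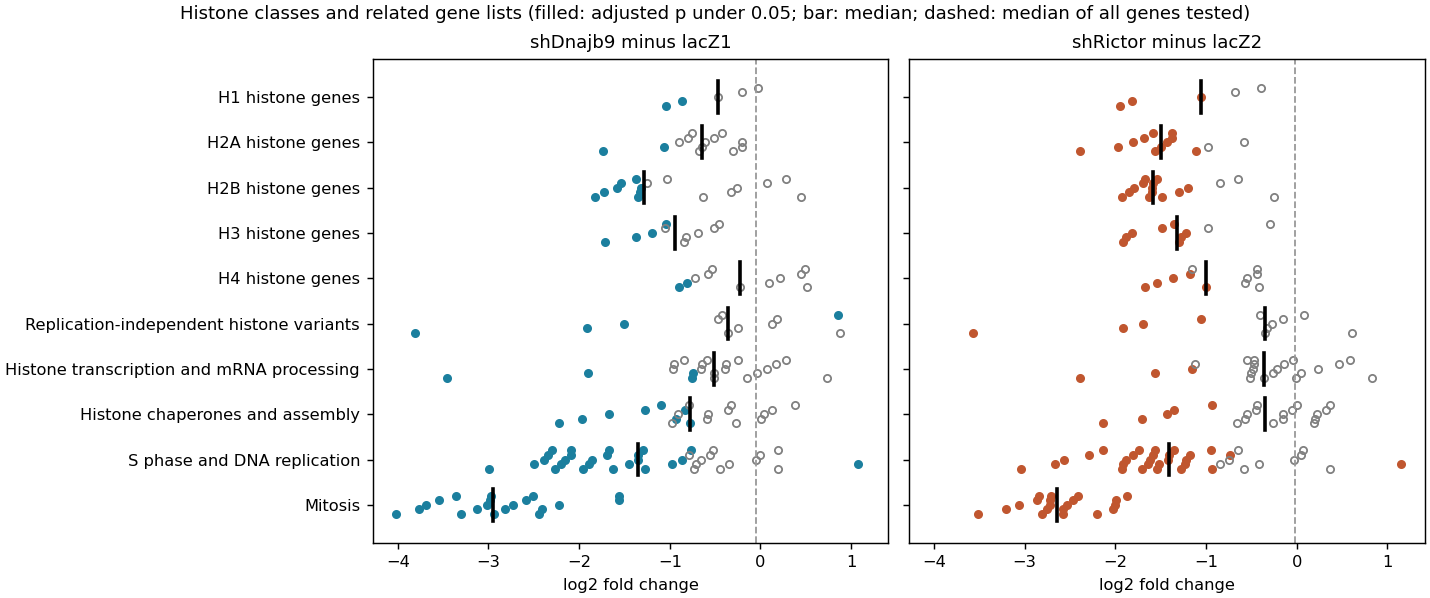
Log2 fold change (horizontal) of the tested genes of each histone class and each related list in shDnajb9 minus lacZ1 (left) and shRictor minus lacZ2 (right); filled points have an adjusted p under 0.05, black bars are medians and the dashed line is the median of all genes tested. The mitosis medians of -2.95 and -2.65 lie furthest to the left, and the H4 median is the highest of the 5 histone classes on both sides.

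Markers of cell types were counted in the same comparisons, where 12.6% of all genes fell and 11.6% rose in shDnajb9, and 10.9% fell and 7.31% rose in shRictor. Hepatocyte markers summed to 47390 and 62040 CPM with lacZ1, 78860 and 68410 with shDnajb9, 26820 and 51470 with lacZ2 and 66230 and 78830 with shRictor, and 4 and 3 of 9 rose. The sums of each hairpin group lay above those of its control. In shDnajb9, Alb and Apob had log2 fold changes below 0 (-0.36 and -0.38) without passing the test, whereas Ttr and Apoa1 rose (1.73 and 2.10). None of the 9 markers was at 0 in any library, so markers of the labelled tissue were present throughout. Kupffer cell and macrophage markers summed to 1442 and 1691 CPM with lacZ1, 1205 and 1388 with shDnajb9, 1421 and 1639 with lacZ2 and 836.1 and 984.6 with shRictor, and 2 and 4 of 9 tested fell. T and NK cell markers summed to 27.5 to 70.6 CPM over all libraries, with 1 and 3 of 10 falling, and stellate cell and fibroblast markers to 314.6 to 626.4, with 5 and 3 of 9 falling. Neutrophil markers summed to 6.71 to 49 CPM, with 4 and 1 of 7 falling and 4 and 3 of the 9 listed genes at 0 in the shDnajb9 libraries. Of 6 tested erythroid markers, 2 and 3 fell and 2 and 2 rose, and of 5 cholangiocyte markers 2 and 0 fell. Endothelial markers had 1 and 0 of 7 rising and 0 falling, and B and plasma cell markers had 0 of 5 called in either comparison. The part of these cell types in the histone results was not tested.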

How the data were processed

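Total RNA depleted of ribosomal RNA was sequenced from 8 liver libraries, 2 per group, grouped by their titles. The authors deposited raw counts per gene symbol, made with HTSeq after trimming with cutadapt on build mm10, per the submitters' processing notes. The aligner, annotation and strand setting are not given in the sources used here, so reads of overlapping or antisense genes cannot be told apart. HTSeq's unassigned classes were left out of library sizes.

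Counts were tested in R 4.3.3 with edgeR 4.0.16 (filterByExpr, minimum count 10; TMM; 1 design of 4 group means over 8 libraries; robust quasi-likelihood F test; Benjamini-Hochberg adjusted p under 0.05 over 13767 genes), after the script was tested on simulated data. The common biological coefficient of variation was 0.209 with 4 residual degrees of freedom, and the median standard error of the members was 0.308 in shDnajb9 and 0.31 in shRictor. DESeq2 1.42.0 was among 21 alternative settings tried for the tests. Counting error alone did not account for the difference between libraries of a group.

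The members and lists were chosen with earlier results of these data known. Named members are the 2 of highest mean CPM per class and, per comparison, up to 6 called members in each direction, by smallest p (no member rose). Members named for an extreme fold change, a position or a count of 5 or fewer, and the transcripts listed by length, were chosen after their values were seen. Of other lists, Slbp, Npat and called genes of smallest p are named.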

Additional observations from a re-analysis of the deposited data

How the results depend on the processing

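The count of members that fell in shDnajb9, 18, became 34 with total counts only, 39 with a transcript length correction and 37 with a length and GC correction chosen after seeing the data. Of all genes, 12.6% fell in the main fit, 13.2% with the length correction and 13.9% with the length and GC correction. Leaving out single libraries gave 11 to 20 (11 without lacZ1 replicate 2), and the count that rose, 0, became 0 to 1. In shRictor the median, -1.38 with all libraries, lay between -1.46 and -1.30 when single libraries were left out. The summed log2 difference then ran from -0.60 to -0.12 in shDnajb9 and from -1.19 to -0.84 in shRictor. With total counts only it was -1.43 in shRictor, and the median of all genes shifted to -0.46 and -0.42, with 24.4% of genes lower and 4.43% higher in shDnajb9 and 20.4% and 3.17% in shRictor. Without a filter on low counts, 4 members passed the test of the difference between hairpins, as lower, and the share of all genes there is not given. The cause of these shifts was not tested. Counting each member named singly once per setting, a call was lost 19 times and gained 11 times in shDnajb9, and lost 11 and gained 11 times in shRictor. No called value reversed its direction in the settings run.

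Whether replicate numbers pair the samples is not stated. The r used to look for pairing was -0.30 between lacZ1 and shDnajb9 and -0.03 between lacZ2 and shRictor. Groups of different experiments gave -0.33 (lacZ1 and shRictor) to 0.32 (shDnajb9 and shRictor), so these values cannot decide it. A replicate block gave 20 lower members in shDnajb9 and 40 in shRictor, and Hist1h1b in shDnajb9 then had an adjusted p of 0.0501. With crossed numbers, chosen after seeing the data, the counts were 17 and 40. Of all genes, 12.6% and 10.8% fell with the block, and 11.5% and 9.76% with crossed numbers. Groups of 2 allow no test of single libraries as outliers.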

Other observations

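A pair of neighbouring genes on chromosome 13 went opposite ways between the lacZ1 libraries. Hist1h3a had 499 and 149 counts in lacZ1, whereas Hist1h4a had 218 and 593. In the other libraries Hist1h3a had 99 and 157 counts with shDnajb9, 388 and 540 with lacZ2 and 158 and 208 with shRictor, and Hist1h4a had 187 and 202, 735 and 741, and 247 and 224. Both fell in shRictor (log2 fold change -1.22, adjusted p = 0.0254, and -1.54, adjusted p = 0.0379) and neither passed the test in shDnajb9 (-0.69, adjusted p = 0.152, and -0.54, adjusted p = 0.41). They lie at chr13:23761853-23762386 and chr13:23760692-23761230, both on the minus strand, and were chosen after their values were seen.

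Hist1h2be, an H2B gene, was low in 1 library of each of the groups lacZ2 and shDnajb9. It was at 89.1 and 115.1 CPM with lacZ1, 21.8 and 47.4 with shDnajb9, 39.3 and 88 with lacZ2 and 20.8 and 20.3 with shRictor, and fell in both comparisons (-1.54, adjusted p = 0.0148, and -1.63, adjusted p = 0.0134). In GENCODE M21 its locus overlaps Hist1h1e, which passed neither test (-0.20, adjusted p = 0.599, and -0.39, adjusted p = 0.341).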
